A study of Homo sapiens with 8 samples.

Results

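The comparison described here set M3-2, a line labelled as a metastatic derivative of the human prostate carcinoma line 22Rv1, against 22Rv1-PT, the derivative labelled as coming from the primary tumour. It rested on 4 of the 8 arrays of the series, 2 of M3-2 and 2 of 22Rv1-PT, and used every probe with a gene name that rose above the background. The other 4 arrays carried the parental cells, 22Rv1-Luc2 (2 arrays), and a further metastatic line, M3-1 (2 arrays), and they entered the same fit. All 4 lines descend from 22Rv1, a carcinoma line raised from a xenograft that had relapsed after castration, and Luc2 in the parental name is that of a firefly luciferase reporter, so that the cells can be followed in an animal by their light. The labels give a cell line as the material of each sample. They do not give the host animals, their number, the site of the metastases, the passage of the derived lines or the meaning of M3, and each derivative is therefore a single line whose distance from the others holds both what it is named for and anything else that its isolation and culture selected. They also do not say that the 2 arrays of a line came from separate cultures, so the p-values measure the spread between arrays, which may be technical.

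As background, a tumour cell that seeds a distant site has to leave the primary mass, cross matrix and vessel walls, survive away from its first surroundings and grow again. Matrix proteins, proteases and their inhibitors, adhesion molecules and secreted modulators of WNT and TGF-beta signalling act at several of these steps. Prostate carcinoma cells also depend on androgen-driven transcription and on lipid synthesis, and relapsed tumours may take on genes of other lineages, such as those of neuroendocrine cells or of the gut epithelium.

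The values were log2 intensities of an Illumina bead array, in which a difference of 1 is a doubling of the signal. All 8 arrays had been brought to the same distribution before deposit, with a median of 6.40, and 43.2% to 43.3% of their probes lay above the level taken as background, 6.54. The 2 arrays of 22Rv1-PT correlated at 0.995 across the 12317 genes tested and those of M3-2 at 0.993, and the SD between the arrays of a line, averaged over genes as a root mean square, was 0.14 in 22Rv1-PT, 0.16 in M3-2, 0.10 in M3-1 and 0.22 in the parental cells. The genes that mark prostate and other luminal epithelium were present in both lines: 11 of the 12 such markers on the array were above background on both arrays of each, among them EPCAM, CDH1, FOXA1 and HOXB13. KLK3, which encodes prostate-specific antigen, stayed at background on all 8 arrays, as did the basal keratin KRT5. None of 10 endothelial markers was above background on both arrays of either line, and 5 of 13 fibroblast and smooth muscle markers were in each.

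M3-2 and 22Rv1-PT differed at 1132 of 12317 genes at an adjusted p below 0.05, which is 9.19% of the genes tested, and 2745 genes had an unadjusted p below 0.05. Of the called genes, 539 were higher in M3-2 (4.38% of the genes tested) and 593 were lower (4.81% of the genes tested). The median difference over all genes was -0.01. A difference of 2-fold or more was found at 190 called genes, 97 higher and 93 lower, and one of 4-fold or more at 33. All 1132 had arrays that did not overlap between the lines, as did 52.2% of all genes tested. The count depended on single arrays, since it was 542 without M3-2 replicate 1, 532 and 519 without 22Rv1-PT replicates 1 and 2, and 1844 without either parental array. The count at 2-fold or more held between 181 and 240 in the 8 fits that left out 1 array each. Because each sample was the RNA of a whole culture, a lower share of cells that express a gene and less of its RNA in every cell cannot be told apart.

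**Figure D1:**
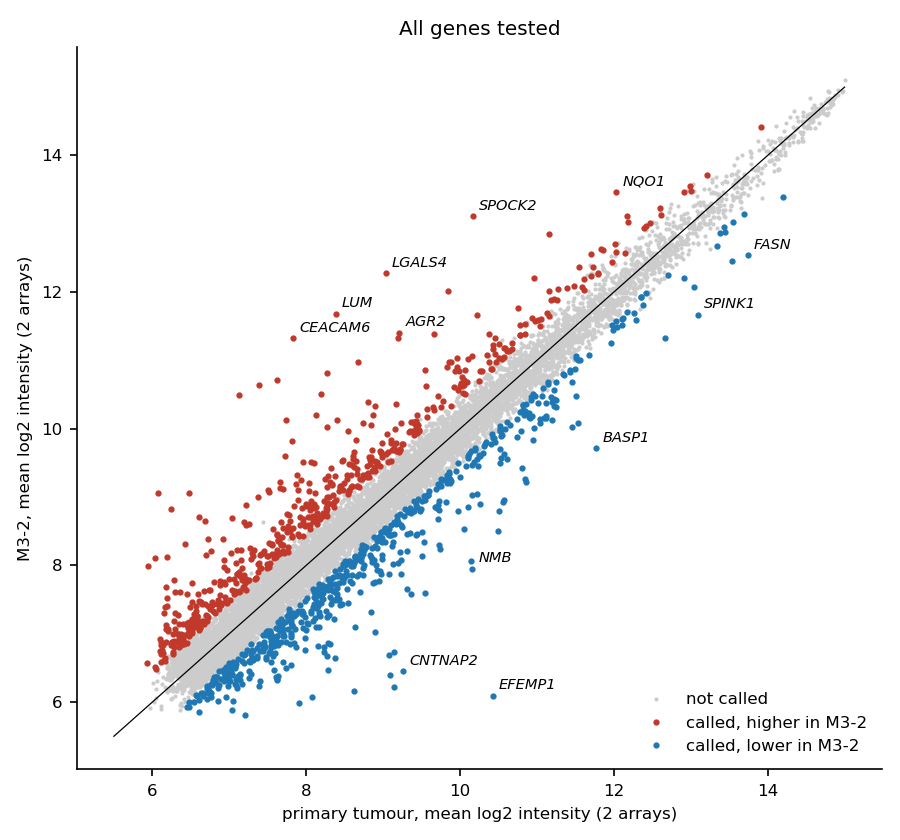
Mean log2 intensity of each gene in 22Rv1-PT (horizontal axis) and in M3-2 (vertical axis), 2 arrays a line, with the genes called higher and lower in M3-2 marked in colour. Most genes lie on the diagonal, CEACAM6 stands furthest above it and EFEMP1 furthest below.

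The largest increase was that of CEACAM6, which encodes a cell surface adhesion molecule of mucosal epithelium and granulocytes that is abundant in several carcinomas. Its log2 intensity was 7.91 and 7.74 on the 22Rv1-PT arrays and 11.40 and 11.26 on those of M3-2. Both M3-2 arrays stood far above the others, a difference of 3.50 (SE 0.14, adjusted p = 4.04e-09) or 11.3-fold, while M3-1, at 7.86 and 7.65, lay with the primary tumour derivative. LPIN2, a phosphatidate phosphatase of glycerolipid synthesis that can also enter the nucleus, had the same pattern, with 7.53 and 7.24 in 22Rv1-PT, 10.81 and 10.48 in M3-2, and 7.33 and 7.28 in M3-1. Its increase over 22Rv1-PT was 9.58-fold (log2 difference 3.26, SE 0.15, adjusted p = 1.14e-08), and its 2 probes moved the same way.

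KCNJ8, the pore-forming subunit of an ATP-sensitive potassium channel, read 7.04 and 7.22 in 22Rv1-PT against 10.41 and 10.57 in M3-2. This was a 10.3-fold increase (SE 0.13 on the log2 scale, adjusted p = 4.04e-09), and M3-1 had the same high level, 10.41 and 10.31. A second potassium channel gene, KCNG1, a modifier subunit of voltage-gated channels, was not above background on either 22Rv1-PT array and read 9.21 and 8.90 in M3-2, at least 5.71-fold higher. BEST2, a bestrophin anion channel of the colon and the eye, was likewise below background in 22Rv1-PT and reached 8.85 and 8.80 in M3-2, at least 4.87-fold higher. The uncharacterised reading frame C10orf95 rose at least 5.72-fold, from below background to 9.20 and 8.92. A fold is given as a minimum wherever one line stayed at background.

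Among metabolic and clotting genes, PDK4, a kinase that shuts pyruvate out of the mitochondrial citrate cycle, was 7.96 and 8.59 in 22Rv1-PT and 10.81 on both arrays of M3-2. The rise was 5.82-fold (adjusted p = 3.11e-05), although the 22Rv1-PT arrays differed between themselves by more than those of M3-2. The parental cells, at 9.23 and 10.28, lay above 22Rv1-PT. F3, tissue factor, which starts the clotting cascade, went from 7.85 and 7.62 to 10.41 and 9.86, a 5.27-fold increase (adjusted p = 8.5e-07). It too was higher in the parental cells than in 22Rv1-PT, at 8.70 and 8.79. ALDH1A1, a retinaldehyde dehydrogenase often used as a marker of progenitor-like cells, read 8.19 and 8.62 against 10.24 and 10.01, 3.30-fold higher (adjusted p = 0.000136). SLC68A1, a gene of the solute carrier families, rose 4.40-fold, from 9.37 and 9.03 to 11.26 and 11.41 (adjusted p = 5.09e-07). The arrays of both lines were separate for each of these genes.

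The largest decrease was that of EFEMP1, which encodes fibulin-3, a glycoprotein of the extracellular matrix. It was bright in 22Rv1-PT, at 10.44 and 10.41, and at background in M3-2, at 6.08 and 6.10. M3-2 was therefore at least 14.8-fold lower (adjusted p = 6.91e-10), and M3-1 was at background as well. The parental cells read 7.34 and 7.51, also far below 22Rv1-PT. RASL11B, a small GTPase of the RAS superfamily, fell at least 6.07-fold from 9.28 and 9.01, and IRX4, a homeodomain transcription factor, at least 4.23-fold from 8.67 and 8.57, each to background in M3-2. Both were at background in M3-1 and in the parental cells too, so among the 4 lines they were above background in 22Rv1-PT alone.

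CNTNAP2, a neurexin-family membrane protein of axons, was at 9.25 and 9.27 in 22Rv1-PT and at 6.52 and 6.38 in M3-2, at least 6.58-fold lower (adjusted p = 1.14e-08). ELF5, an ETS transcription factor of luminal secretory epithelium, read 9.24 and 8.93 against 6.38 and 6.40, at least 5.84-fold lower (adjusted p = 2.56e-07). ELF5 stayed at 9.37 and 9.35 in M3-1, so its loss separated the 2 metastatic lines. FOXA3, a forkhead factor of liver and gut endoderm, fell 5.34-fold, from 9.19 and 9.11 to 6.74 and 6.73 (adjusted p = 2.81e-08). In the parental cells FOXA3 was also near background, at 6.62 and 6.50. GJA1, the gap junction protein connexin 43, fell 5.23-fold, from 8.95 and 9.20 to 6.75 and 6.63 (adjusted p = 5.13e-06).

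NOS3, the endothelial nitric oxide synthase, was 10.53 and 10.45 in 22Rv1-PT and 8.46 and 8.54 in M3-2, 3.97-fold lower (adjusted p = 6.12e-06). BASP1, a membrane-bound signalling protein of growth cones that also acts as a transcriptional cosuppressor, fell 4.16-fold, from 11.69 and 11.86 to 9.83 and 9.60 (adjusted p = 5.55e-07). CYP4X1, an orphan cytochrome P450, fell 3.67-fold, from 8.90 and 8.89 to 7.20 and 6.84 (adjusted p = 1.22e-06). In the parental cells CYP4X1 was at background, at 6.23 and 6.31. GPAT2, a mitochondrial glycerol-3-phosphate acyltransferase best known from the testis, and DNAJA4, an HSP40 co-chaperone, fell to background, at least 2.91-fold from 8.10 and 8.06 and at least 2.58-fold from 7.85 and 7.97. None of the 15 genes with the largest increase or the 15 with the largest decrease lost its call in any of the other fits in which it was tested, those without 1 array included. There were 17 such fits for each gene but C10orf95, RASL11B, IRX4 and GPAT2, which the fit limited to genes with a mean log2 intensity above 7 left out.

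**Figure D2:**
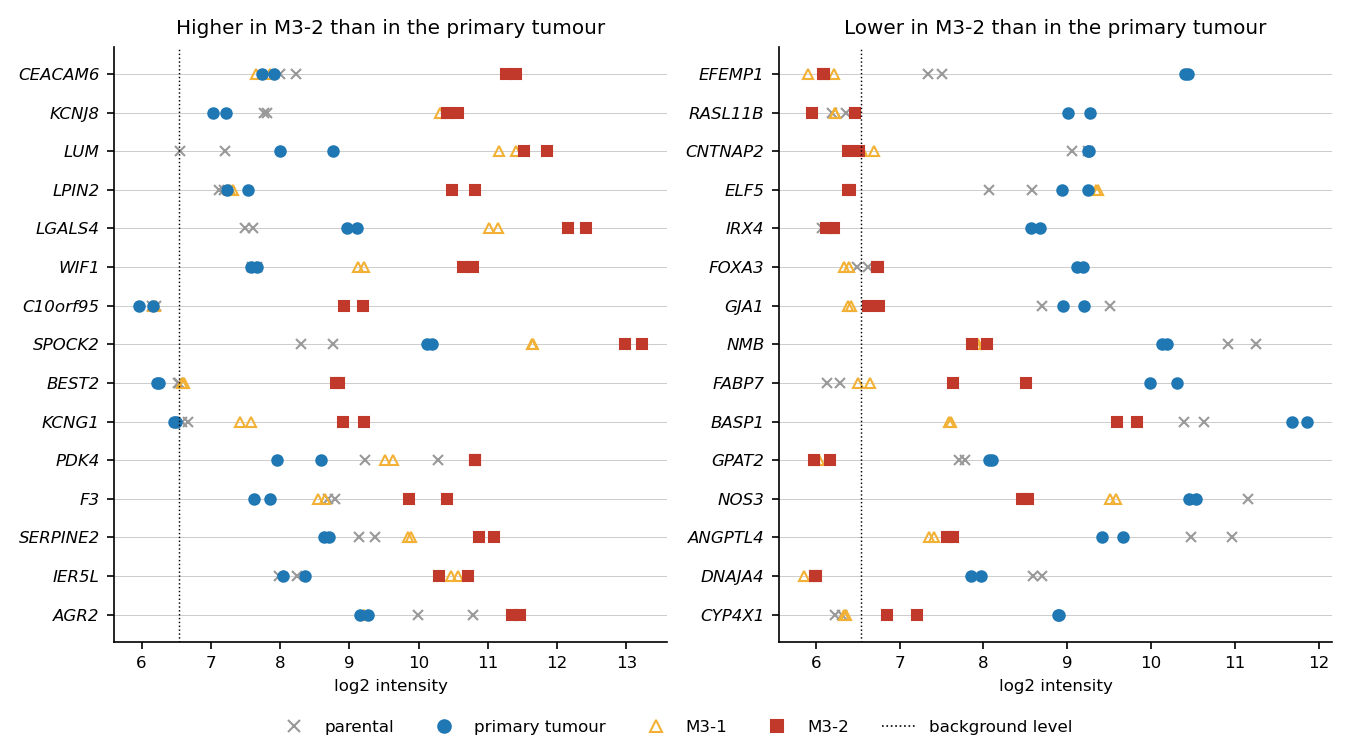
Log2 intensity on each array of 22Rv1-PT and M3-2, with those of the parental cells and M3-1 beside them, for the 15 genes with the largest increase and the 15 with the largest decrease in M3-2. Each point is 1 array, and the dotted line is the background level of 6.54. The points of 22Rv1-PT and M3-2 do not meet for any gene, which was a condition of the choice of these genes.

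Genes of gut and other mucosal epithelium, which carry secreted and surface glycoproteins of goblet cells and enterocytes, rose more often than they fell. Of 17 tested, 7 rose, 3 fell and 7 did not pass the test (58.8% called, against 9.19% of all genes). This list and those below were chosen with earlier results of these data known. A called share above that of all genes is therefore a description and not a test of a list. The median difference was 0.16 against -0.01 over all genes. LGALS4, galectin-4, a lectin of the intestinal brush border, was 8.96 and 9.11 in 22Rv1-PT, 12.15 and 12.41 in M3-2, and 11.14 and 11.02 in M3-1. It was 9.51-fold higher in M3-2 than in 22Rv1-PT (adjusted p = 5.14e-09) and was also higher than in M3-1 (log2 difference 1.20, adjusted p = 0.000154). AGR2, a protein disulfide isomerase needed for mucin folding, read 9.15 and 9.27 against 11.47 and 11.35, 4.59-fold higher (adjusted p = 6.82e-06). In the parental cells AGR2 read 9.99 and 10.78, above 22Rv1-PT. REG4, a secreted lectin of enteroendocrine and goblet cells, rose 3.09-fold, from 7.21 and 7.54 to 8.66 and 9.34 (adjusted p = 0.000333).

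CEACAM5, carcinoembryonic antigen, which is close to CEACAM6 in sequence, so that their probes may share signal, was at background in 22Rv1-PT and at a mean of 7.13 (SD 0.19, n = 2) in M3-2, at least 1.50-fold higher (adjusted p = 0.000585). MUC13, a transmembrane mucin of the gut, rose 1.88-fold, from 10.24 and 9.97 to 11.17 and 10.86 (adjusted p = 0.00171). The other large member to move went the opposite way: MUC1, a transmembrane mucin of many glandular epithelia, fell 2.70-fold, from 8.18 and 8.29 to 6.79 and 6.81 (adjusted p = 5e-06). The members that fell with it were TFF2, a trefoil peptide of gastric mucus, at -0.50 (adjusted p = 0.0342), and VIL1, the microvillus protein villin, at -0.55 (adjusted p = 0.0302). Neither kept its call without 22Rv1-PT replicate 1 (0.088 and 0.16) or replicate 2 (0.254 and 0.146), without M3-2 replicate 1 (0.137 and 0.297) or without M3-1 replicate 1 or 2 (0.0762 and 0.0525 in each), and TFF2 also lost it without M3-2 replicate 2 (0.127). The count of 7 higher was 6 or 7 in the 8 fits with an array left out, and that of 3 lower was 1 in the 5 fits in which both lost their calls.

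Genes of the extracellular matrix changed in both directions, with 6 of 20 tested higher, 4 lower and a median difference of 0.06 (50% called, against 9.19% of all genes). LUM, lumican, a small leucine-rich proteoglycan that binds collagen fibrils, read 8.01 and 8.76 in 22Rv1-PT and 11.52 and 11.85 in M3-2, 9.86-fold higher (SE 0.24 on the log2 scale, adjusted p = 1.17e-06). The level in M3-1 was close by, at 11.41 and 11.17. SPOCK2, a testican proteoglycan, was bright in both lines and rose 7.69-fold, from 10.20 and 10.13 to 12.99 and 13.23 (adjusted p = 4.78e-08). THBS1, thrombospondin 1, a matrix protein that restrains vessel growth and activates latent TGF-beta, rose 2.09-fold, from 7.81 and 7.99 to a mean of 8.96 (SD 0.06, n = 2; adjusted p = 0.000747), and LAMB3, a chain of a basement membrane laminin of epithelium, rose 1.83-fold, from 6.65 and 6.57 to 7.45 and 7.52 (adjusted p = 0.00046). Against these stood EFEMP1, described above, and VCAN, versican, a large proteoglycan of loose matrix, which fell 1.63-fold, from 7.55 and 7.67 to 6.92 and 6.89 (adjusted p = 0.00383, and 0.0582 without 22Rv1-PT replicate 2). The count lower was 2 without M3-2 replicate 1 and 1 without 22Rv1-PT replicate 2.

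LUM is also a marker of fibroblasts, and 3 of the 5 fibroblast and smooth muscle markers tested were called higher in M3-2, against 4.38% of all genes. The mean log2 intensity over all 13 markers on the array was 6.67 to 6.74 on the 22Rv1-PT arrays and 6.96 to 6.97 on those of M3-2. That mean holds LUM, whose difference of 3.30 was far larger than those of DCN (0.58) and TAGLN (0.50), so it does not show a general rise. The 8 markers not tested, COL1A2, COL3A1, PDGFRA, PDGFRB and THY1 among them, were not above background on both arrays of either line. The part of other cells in these values was not tested. Of the 2 others tested, COL1A1 had a difference of -0.19 and ACTA2 one of -0.24, and neither passed the test. DCN, decorin, was 6.61 and 6.55 against 7.27 and 7.05 (adjusted p = 0.0099), but its adjusted p was 0.115 without M3-2 replicate 1 and 0.0628 and 0.0954 without 22Rv1-PT replicates 1 and 2. TAGLN, transgelin, differed by 0.50 (adjusted p = 0.0304), which 6 of the 8 fits with an array left out did not keep: its adjusted p was 0.103 and 0.133 without M3-2 replicates 1 and 2, 0.172 and 0.151 without 22Rv1-PT replicates 1 and 2, and 0.0701 without either M3-1 array.

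Of 19 proteases and protease inhibitors tested, 5 were higher and 2 lower, with a median difference of 0.08 (36.8% called, against 9.19% of all genes). None of the 5 that rose was itself a protease. SERPINE2, protease nexin 1, a secreted inhibitor of thrombin and urokinase, read 8.70 and 8.64 in 22Rv1-PT and 11.09 and 10.87 in M3-2, 4.96-fold higher (adjusted p = 1.24e-07). A2M, the broad protease trap alpha-2-macroglobulin, went from 6.74 and 6.46 to 8.76 and 8.66, 4.31-fold higher (adjusted p = 3.28e-07), with 1 of the 22Rv1-PT arrays below background. SERPINB5, maspin, a serpin by sequence that is not known to inhibit proteases, rose 1.97-fold, from 7.16 and 7.38 to 8.07 and 8.43 (adjusted p = 0.00091), and TIMP1, an inhibitor of matrix metalloproteinases, 1.82-fold, from 11.69 and 11.71 to 12.57 and 12.55 (adjusted p = 0.00096). The fifth to rise was TIMP2, also a metalloproteinase inhibitor (difference 0.64, adjusted p = 0.00663, and 0.069 without M3-2 replicate 1 and 0.112 without 22Rv1-PT replicate 1). The 2 that fell were SPINK1, a trypsin inhibitor that marks a subset of prostate carcinomas, 2.68-fold from 12.91 and 13.28 to 11.44 and 11.90 (adjusted p = 0.00142), and the lysosomal protease cathepsin H, CTSH, 2.40-fold from 10.14 and 10.08 to 8.93 and 8.77 (adjusted p = 4.79e-05).

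Adhesion receptors and genes of epithelial or mesenchymal state had 6.25% (integrins), 11.1% (epithelial) and 30.0% (mesenchymal) of their tested members called, against 9.19% of all genes. Of 16 integrins and adhesion adaptors, 1 was called: ITGA5, the alpha subunit of the fibronectin receptor, which fell 2.50-fold, from 8.13 and 8.17 to 6.85 and 6.80 (adjusted p = 1.99e-05). Among 27 epithelial genes, 3 were higher and none lower, with a median of 0.00. CDH1, E-cadherin, read 11.61 and 11.88 in 22Rv1-PT against 11.69 and 11.70 in M3-2, and the mesenchymal filament gene VIM 9.24 and 9.08 against 9.40 and 9.41, and the arrays of CDH1 overlapped between the lines. The difference was -0.06 (SE 0.14, adjusted p = 0.877) for CDH1 and 0.25 (SE 0.13, adjusted p = 0.288) for VIM. CLDN1, a claudin of tight junctions, had the largest epithelial increase, 1.87-fold (adjusted p = 0.00419, and 0.0544 without 22Rv1-PT replicate 1). KRT8, a luminal keratin, rose 1.50-fold (adjusted p = 0.0134, and 0.07 and 0.0706 without M3-2 replicates 1 and 2 and 0.146 without 22Rv1-PT replicate 1). The epithelial count was 1 without M3-2 replicate 1 and 0 without 22Rv1-PT replicate 1. Of 10 mesenchymal genes 1 was higher and 2 were lower, ITGA5 among the latter, with a median of 0.02. The count higher was 0 without M3-2 replicate 1 or without either 22Rv1-PT array, and the count lower was 1 without 22Rv1-PT replicate 1.

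Secreted modulators of WNT signalling moved in opposite directions. WIF1, which binds WNT ligands and holds them from their receptors, was 7.66 and 7.59 in 22Rv1-PT and 10.79 and 10.64 in M3-2, an 8.52-fold increase (adjusted p = 4.04e-09), with M3-1 in between at 9.13 and 9.21. DKK1, which blocks the LRP5 and LRP6 coreceptors, read 10.26 and 10.04 against 9.08 and 8.97, 2.18-fold lower (adjusted p = 0.000112). NKD2, an intracellular antagonist that binds Dishevelled, fell 1.71-fold (adjusted p = 0.00128). Over the list 3 of 20 were higher and 3 lower, with a median of -0.09 (30% called, against 9.19% of all genes). AXIN2, a common target of beta-catenin, differed by -0.26 without passing the test. The 3 other calls were LEF1, a transcription factor of the pathway, and the receptor FZD4, which were higher by 0.79 and 0.64, and the receptor FZD2, which was at background in M3-2 and at least 1.02-fold lower. LEF1 had an adjusted p of 0.0558 without 22Rv1-PT replicate 1 and FZD4 one of 0.0625 without 22Rv1-PT replicate 2, and FZD2 reached 0.23 without 22Rv1-PT replicate 1.

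Among 23 genes of TGF-beta and BMP signalling, 3 rose and 3 fell (26.1% called, against 9.19% of all genes), and the median difference was 0.08. BAMBI, a pseudoreceptor that damps both branches, rose 2.27-fold, from 9.22 and 9.12 to 10.38 and 10.34 (adjusted p = 5.77e-05). GDF15, a stress-induced member of the ligand family, rose 1.91-fold, from 8.57 and 8.54 to 9.55 and 9.42 (adjusted p = 0.000509). CFC1, a coreceptor of the NODAL branch, fell to background from 7.51 and 7.26, at least 1.79-fold lower (adjusted p = 0.000214). The count lower was 1 in the fits without M3-2 replicate 1, without either 22Rv1-PT array and without either M3-1 array.

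Genes of the amino acid response were called in 1 direction. ATF4 is a transcription factor made when the kinases that sense amino acid shortage, unfolded protein or other stress slow translation, and it raises genes for amino acid synthesis and uptake and for tRNA charging. Of 38 genes tested, 16 were higher in M3-2 and none lower, so that 42.1% were called, against 9.19% of all genes. A positive difference was found for 35, against 5902 of all 12317 genes, and the median was 0.39. The increases were small: STC2, the secreted glycoprotein stanniocalcin 2, had the largest, 2.68-fold, from 8.65 and 8.44 to 10.02 and 9.93 (adjusted p = 7.94e-06). DDIT4, an inhibitor of mTORC1, read 9.98 and 9.79 against a mean of 10.97 (SD 0.04, n = 2), 2.12-fold higher (adjusted p = 0.000157), and NUPR1, a stress-induced nuclear protein, 9.98 and 9.96 against 10.62 and 11.19, 1.92-fold higher (adjusted p = 0.00337). MARS1, the methionyl-tRNA synthetase, rose 1.67-fold, from 10.38 and 10.48 to 11.04 and 11.29 (adjusted p = 0.00277), and SLC7A11, the cystine transporter that NRF2 also controls, at least 1.38-fold, from background to 7.04 and 6.96 (adjusted p = 0.00275).

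Because many of these increases were close to the threshold, the count of 16 fell to 7 and 9 without M3-2 replicates 1 and 2, to 6 and 8 without 22Rv1-PT replicates 1 and 2, and to 10 without either M3-1 array. ASNS, asparagine synthetase, was 12.46 and 12.49 against 12.89 and 13.14 (difference 0.54, adjusted p = 0.0257). It had an adjusted p of 0.158 without M3-2 replicate 2, 0.156 and 0.126 without 22Rv1-PT replicates 1 and 2, and 0.0551 without either M3-1 array. CHAC1, which degrades glutathione, was at background in 22Rv1-PT and at 7.05 and 6.93 in M3-2, at least 1.36-fold higher (adjusted p = 0.00539). Its adjusted p was 0.0631 without M3-2 replicate 1 and 0.0544 without 22Rv1-PT replicate 1 or 2. For none of the called members named here did M3-2 and M3-1 differ at an adjusted p below 0.05.

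**Figure D3:**
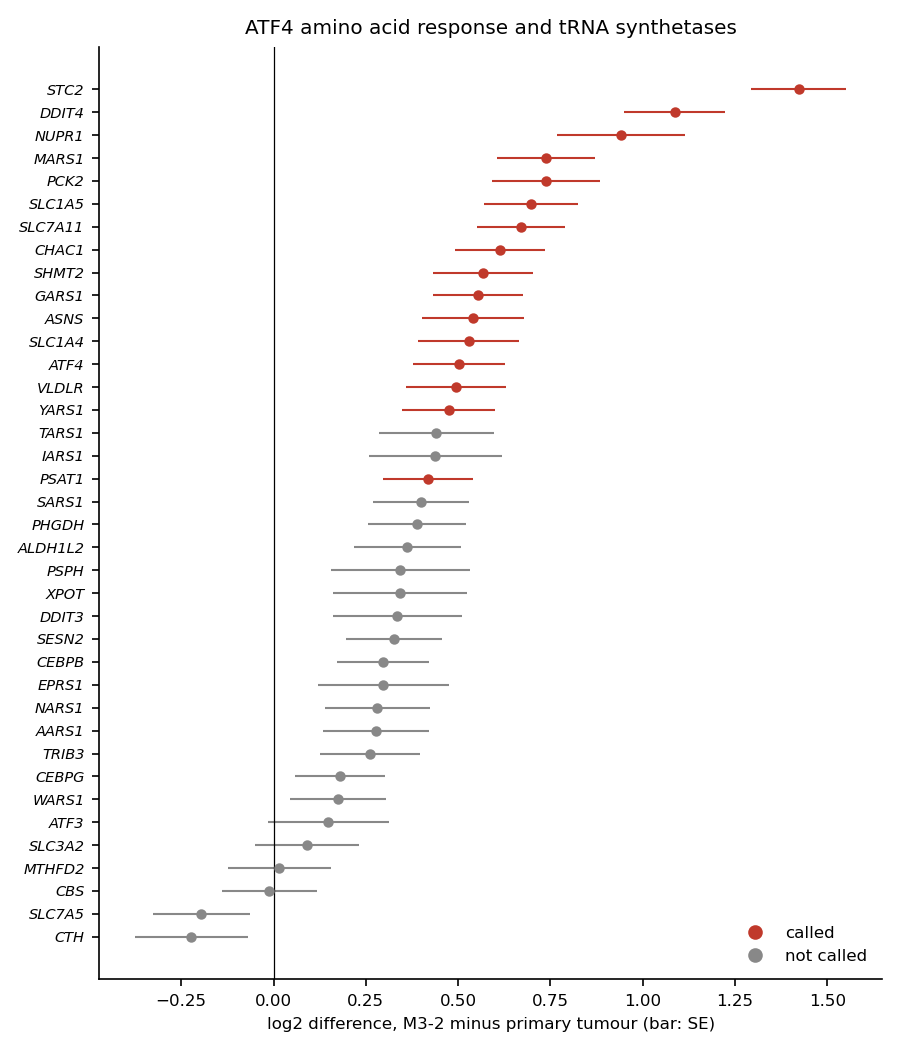
Log2 difference of M3-2 from 22Rv1-PT for the 38 genes tested of the amino acid response, with the standard error of each and the called genes in colour. The points lie to the right of 0 for 35 of the 38 genes, and STC2 stands furthest out. CHAC1 and SLC7A11, at background in 22Rv1-PT, are plotted at their measured difference.

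The promoters of called members are shown to let the element that ATF4 is known to bind, together with a C/EBP partner, be seen in its place. The letters searched were TGATGNAA on both strands, in the 250 bases before and the 50 bases after each gene's start in RefSeq (GRCh38.p14). Of 38 members tested 32 had a promoter in that table, and 9 of these held the letters, against 176 of the 9860 tested genes with a promoter (1.79%) and 1003 of all 27305 promoters (3.67%). Among the 12 called members with a promoter, 3 held them: CHAC1 (chr15:40953221-40953520, plus strand, with the match starting 209 bases before the start of the gene), ASNS (chr7:97872359-97872658, minus strand, 68 bases before) and MARS1 (chr12:57487818-57488117, plus strand, 4 bases before). The matches stand in capitals, and those of CHAC1 and MARS1 read on the opposite strand. A match is a description of these letters and not evidence of binding.
CHAC1: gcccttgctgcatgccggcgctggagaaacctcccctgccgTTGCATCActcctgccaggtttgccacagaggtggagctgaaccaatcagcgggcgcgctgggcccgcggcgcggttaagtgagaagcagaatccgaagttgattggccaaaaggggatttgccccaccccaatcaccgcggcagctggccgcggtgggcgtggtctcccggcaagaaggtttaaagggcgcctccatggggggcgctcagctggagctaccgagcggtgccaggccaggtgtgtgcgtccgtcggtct
ASNS: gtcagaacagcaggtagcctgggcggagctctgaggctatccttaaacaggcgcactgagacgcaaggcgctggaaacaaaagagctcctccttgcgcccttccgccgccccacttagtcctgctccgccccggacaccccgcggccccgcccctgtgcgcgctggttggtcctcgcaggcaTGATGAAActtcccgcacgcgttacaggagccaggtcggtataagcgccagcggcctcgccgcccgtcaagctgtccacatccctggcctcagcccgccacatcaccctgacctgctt
MARS1: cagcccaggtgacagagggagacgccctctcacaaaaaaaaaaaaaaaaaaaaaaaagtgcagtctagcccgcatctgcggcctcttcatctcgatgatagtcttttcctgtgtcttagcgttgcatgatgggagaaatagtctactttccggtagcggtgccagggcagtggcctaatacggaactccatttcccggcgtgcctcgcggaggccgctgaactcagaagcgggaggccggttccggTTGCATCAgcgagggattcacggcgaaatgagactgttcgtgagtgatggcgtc

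Of the chaperone genes of other stress responses, 4.17% (endoplasmic reticulum) and 9.09% (heat shock) were called, against 9.19% of all genes. In the unfolded protein response of the endoplasmic reticulum, 1 of 24 genes was called, the chaperone HSPA5 (BiP), which was lower, from 9.82 and 9.84 to 9.36 and 9.30 (adjusted p = 0.0212). That call was lost in all 6 fits without an array of M3-2 (adjusted p 0.0868 and 0.0905), of 22Rv1-PT (0.122 and 0.14) or of M3-1 (0.0536 in both). Among 22 heat shock genes, 2 were lower and none higher, DNAJA4 and the small heat shock protein CRYAB, which fell to background from 6.98 and 7.04 (adjusted p = 0.00678, and 0.102 without M3-2 replicate 1 and 0.0662 without 22Rv1-PT replicate 2). The median was -0.02 for the first list and -0.05 for the second.

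Targets of NRF2, the transcription factor of the oxidative stress response, held 5 higher genes and none lower among 23 tested, with a median of 0.08. The called share was 21.7%, against 9.19% of all genes. NQO1, a quinone reductase, read 12.04 and 12.02 in 22Rv1-PT and 13.46 and 13.48 in M3-2, 2.71-fold higher (adjusted p = 4.01e-06), and GPX2, the glutathione peroxidase of gut epithelium, 7.09 and 7.22 against 7.96 and 8.18, 1.89-fold higher (adjusted p = 0.000431). NQO1 was the largest change of the list, and M3-1 matched it at 13.49 and 13.36. The glutathione synthesis genes GCLC and GCLM, at -0.32 and 0.08, and HMOX1, at -0.05, did not pass the test. The other calls, beside SLC7A11, were the malic enzyme ME1 and UGDH, which makes UDP-glucuronate, each higher by 0.75, with adjusted p of 0.0762 and 0.0596 without M3-2 replicate 1. The count was 3 in that fit.

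Growth factor signalling through ERK induces a first wave of genes and a set of feedback inhibitors. Of 34 such genes 11 were higher in M3-2 and 1 lower, with a median of 0.18 (35.3% called, against 9.19% of all genes). IER5L, a relative of an immediate early gene, rose most, 4.95-fold, from 8.36 and 8.04 to 10.71 and 10.30 (adjusted p = 1.01e-06). PHLDA1, a PH domain protein that restrains receptor signalling, rose 2.63-fold, from 8.20 and 8.01 to 9.76 and 9.23 (adjusted p = 0.000191), and DUSP6, the phosphatase that removes phosphate from ERK, 2.00-fold, from 7.75 and 7.76 to 8.96 and 8.55 (adjusted p = 0.000552). The feedback inhibitor SPRY4 and the ETS factor ETV5, both ERK targets, rose 1.68-fold and 1.69-fold (adjusted p = 0.00115 and 0.00208). The transcription factors FOS, EGR1, JUN and MYC did not pass the test, at 0.17, 0.38, 0.21 and -0.23, although other first-wave genes were among those called. The count of 11 was 5 without M3-2 replicate 1, 6 and 7 without 22Rv1-PT replicates 1 and 2, and 7 without either M3-1 array.

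Genes of lipid synthesis and storage were mostly lower in M3-2 where they changed, with 8 of 33 lower, 1 higher and a median of -0.19. The called share was 27.3%, against 9.19% of all genes. FASN, fatty acid synthase, which makes palmitate and is abundant in prostate carcinoma, was 13.71 and 13.77 in 22Rv1-PT and 12.41 and 12.68 in M3-2, 2.29-fold lower (adjusted p = 4.73e-05). SCD, the stearoyl-CoA desaturase that acts on its products, fell 1.58-fold, from 13.36 and 13.31 to 12.68 and 12.67 (adjusted p = 0.00275), and PLIN2, which coats lipid droplets, 1.70-fold, from 7.68 and 7.58 to 6.81 and 6.91 (adjusted p = 0.00126). FABP7, a fatty acid binding protein of the brain, fell most, 4.21-fold, from 9.98 and 10.31 to 7.64 and 8.50 (adjusted p = 3.32e-05), and its 2 M3-2 arrays stood further apart than those of 22Rv1-PT. In the parental cells FABP7 was at background, at 6.13 and 6.29, so M3-2 lay between them and 22Rv1-PT. Most genes of the cholesterol branch did not pass the test, HMGCS1 at -0.17, SQLE at -0.19 and the regulator SREBF2 at 0.16 among them. The count lower was 5 without M3-2 replicate 1 or 2, without 22Rv1-PT replicate 1 or without either M3-1 array, and 4 without 22Rv1-PT replicate 2.

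The exception was ACSL1, an acyl-CoA synthetase, which rose from 9.69 and 9.61 to 10.29 and 10.35 (adjusted p = 0.00376, and 0.0544 without 22Rv1-PT replicate 2). The count of genes higher was 0 in that fit and 3 without M3-2 replicate 2. ACSL1 was higher still in M3-1, at 11.30 and 11.13.

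Of 33 genes of hypoxia and glycolysis, 5 fell and none rose (15.15% called, against 9.19% of all genes), and the median was -0.20. ANGPTL4, a secreted inhibitor of lipoprotein lipase, fell 3.84-fold, from 9.66 and 9.42 to 7.63 and 7.57 (adjusted p = 3.1e-06), with all 3 of its probes lower but only 1 of them called. CA12, a cell surface carbonic anhydrase, fell 2.71-fold, from 9.72 and 9.74 to 8.11 and 8.48 (adjusted p = 3.63e-05), BNIP3, a mitochondrial protein of mitophagy, 1.94-fold (adjusted p = 0.000609), and HK2, an inducible hexokinase, 1.66-fold (adjusted p = 0.00189). VEGFA at -0.07, LDHA at -0.13 and PGK1 at -0.12 did not pass the test. In the fits with an array left out the count lower was 5 to 7.

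**Figure D4:**
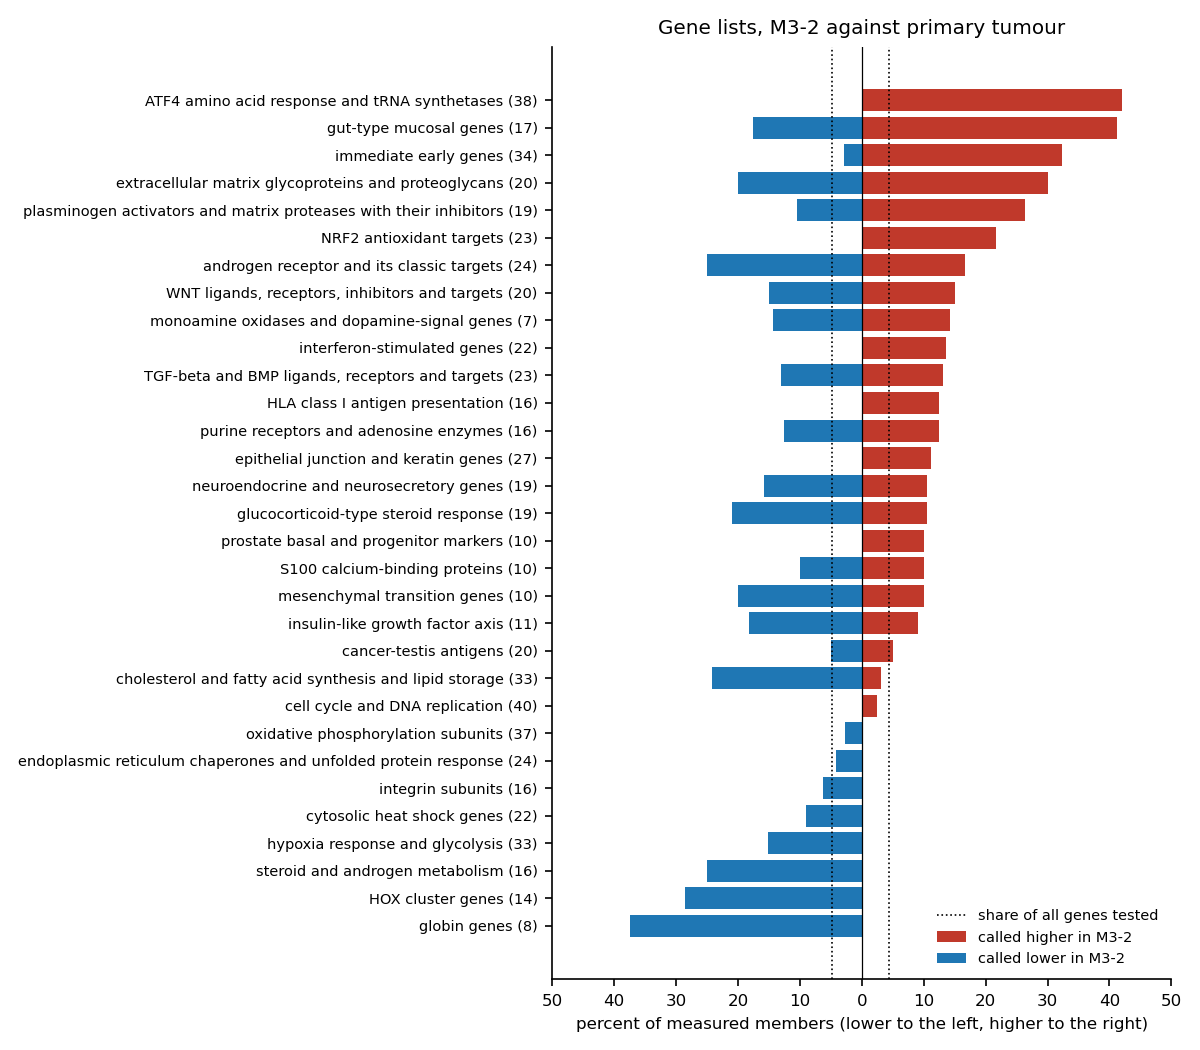
Percent of the tested members of each gene list that were called lower (to the left) or higher (to the right) in M3-2 than in 22Rv1-PT, with the number of genes tested in brackets and the shares of all genes, 4.81% and 4.38%, as dotted lines. The amino acid response and the gut-type genes have the longest bars to the right, the former with no bar to the left. The lists of hypoxia, steroid metabolism, HOX and globin genes have bars to the left alone. The lists were chosen with earlier results of these data known, so a bar beyond the dotted line is not a test.

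Genes that respond to androgen changed in both directions: of 24 tested, 4 were higher, 6 lower and 14 did not pass the test, with a median of -0.15. The called share was 41.7%, against 9.19% of all genes. TMPRSS2, a membrane serine protease whose promoter is androgen driven, fell 1.89-fold, from 8.36 and 8.14 to 7.16 and 7.50 (adjusted p = 0.00143). PMEPA1, an androgen- and TGF-beta-induced inhibitor of SMAD signalling, fell 1.95-fold, from 11.18 and 11.06 to 10.03 and 10.28 (adjusted p = 0.00124), and ZBTB16, a zinc finger repressor that answers to androgen and glucocorticoid, 2.26-fold, from 10.36 and 10.08 to 9.12 and 8.96 (adjusted p = 0.000411). The parental cells, at 9.46 and 8.96 for ZBTB16, were close to M3-2. ELL2, an elongation factor, went the other way, 1.80-fold higher, from 9.81 and 10.18 to 10.80 and 10.89 (adjusted p = 0.00189). KLK2, the kallikrein next to KLK3 and a classic target, read 7.50 and 7.35 against 7.15 and 7.36, a difference of -0.17 (SE 0.13, adjusted p = 0.51). The count higher was 1 without M3-2 replicate 1 or 22Rv1-PT replicate 2 and 2 without 22Rv1-PT replicate 1 or either M3-1 array.

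The factors that define the prostate lineage did not pass the test. FOXA1, a pioneer factor of the androgen receptor, read 12.97 and 13.16 in 22Rv1-PT and 12.83 and 12.90 in M3-2 (difference -0.20, SE 0.13, adjusted p = 0.406). HOXB13, a homeobox factor of the prostate, read 9.96 and 9.65 against 9.94 and 9.80 (difference 0.06, SE 0.16, adjusted p = 0.876). NR3C1, the glucocorticoid receptor, lay near background in both lines, at 6.74 and 6.67 against 6.57 and 6.37 (adjusted p = 0.312). FOLH1, prostate-specific membrane antigen, was 9.95 and 10.11 against 11.07 and 10.46, 1.66-fold higher (adjusted p = 0.0368). Its adjusted p was 0.377 without M3-2 replicate 1, 0.212 and 0.106 without 22Rv1-PT replicates 1 and 2, and 0.0722 without either M3-1 array.

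Genes of steroid metabolism were called only in the direction of decrease, 4 of 16 (25%, against 9.19% of all genes called either way), with a median of -0.18. All 4 encode enzymes of the UGT2B family, which conjugate steroids with glucuronic acid. UGT2B17, which clears dihydrotestosterone, fell 2.23-fold, from 9.13 and 9.33 to 7.93 and 8.22 (adjusted p = 0.000115). UGT2B15, with the same substrates, fell 2.05-fold, from 8.99 and 8.91 to 7.95 and 7.89 (adjusted p = 0.000216), and UGT2B10 2.03-fold, from 8.26 and 8.62 to 7.51 and 7.33 (adjusted p = 0.00139). These genes are near-identical in sequence, so their probes may read each other's transcripts and the 4 are not separate observations. The fourth, UGT2B11, differed by -0.69 (adjusted p = 0.0388) and lost its call in the 6 fits without an array of M3-2 (0.297 and 0.0749), of 22Rv1-PT (0.155 and 0.173) or of M3-1 (0.0684 in both). AKR1C3 and SRD5A1, which make active androgens, differed by -0.13 and -0.24 and did not pass the test.

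Of 19 neuroendocrine genes, 2 were higher and 3 lower, with a median of -0.10 (26.3% called, against 9.19% of all genes). NMB, neuromedin B, a bombesin-like peptide, fell 4.63-fold, from 10.13 and 10.19 to 8.04 and 7.86 (adjusted p = 3.06e-07). DDC, which makes dopamine and serotonin from their precursors, fell 2.69-fold, from 8.50 and 8.07 to 6.81 and 6.91 (adjusted p = 4e-05). The other lower gene, SCG5, differed by -0.52 (adjusted p = 0.0189), with a mean of 6.21 in M3-2, under the background level. Its call was lost in each fit without an array of M3-2 or 22Rv1-PT. CALCA, which encodes calcitonin and its gene-related peptide, rose 2.55-fold, from 7.31 and 7.22 to 8.72 and 8.50 (adjusted p = 2e-05). The general markers did not pass the test: SYP, synaptophysin, differed by -0.25 (SE 0.15, adjusted p = 0.356), ENO2 by -0.10 (SE 0.13, adjusted p = 0.708) and CHGA, chromogranin A, by -0.41 (SE 0.13, adjusted p = 0.0731). CGA, the common alpha subunit of the glycoprotein hormones, was the other increase, at 0.89 (adjusted p = 0.0294), and lost its call without M3-2 replicate 2 (0.245) and without 22Rv1-PT replicates 1 and 2 (0.214 and 0.0615).

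In the insulin and IGF axis, 27.3% of the 11 genes tested were called, against 9.19% of all genes, and both adaptor proteins of the receptors were lower. IRS2 fell 2.70-fold, from 11.30 and 11.62 to a mean of 10.03 (SD 0.04, n = 2; adjusted p = 1.96e-05), and IRS1 1.54-fold, from 7.37 and 7.53 to 6.90 and 6.76 (adjusted p = 0.00678, and 0.0545 without M3-2 replicate 2 and 0.0969 without 22Rv1-PT replicate 2). IGFBP3, a binding protein that holds IGFs in the circulation, was 8.21 and 8.16 against 8.08 and 8.01 and did not pass the test (adjusted p = 0.697). The one gene of the 11 that was higher was IGFBP2, also a binding protein, by 0.57 (adjusted p = 0.0362). It had an adjusted p of 0.198 and 0.111 without M3-2 replicates 1 and 2, 0.333 without 22Rv1-PT replicate 2 and 0.0723 without either M3-1 array.

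Of 40 cell cycle genes 1 was called (2.50%, against 9.19% of all genes), with a median of -0.12, and MKI67, the common proliferation marker, differed by -0.07. Of 37 genes of oxidative phosphorylation 1 was called, with a median of -0.11. The single calls were CDKN2B, a CDK4 inhibitor, at 0.50 (adjusted p = 0.0204), and NDUFV1, of complex I, at -0.50 (adjusted p = 0.0362), and neither held without M3-2 replicate 1 (0.159 and 0.106) or without 22Rv1-PT replicate 1 (0.174 and 0.326) or 2 (0.0905 and 0.0566). Leaving out either M3-1 array also ended both calls (0.0532 and 0.0796), and leaving out M3-2 replicate 2 ended that of NDUFV1 (0.158). Without either parental array 2 cell cycle genes were called higher.

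Interferon-stimulated genes and those of antigen presentation held 3 calls of 22 (13.6%, median 0.07) and 2 of 16 (12.5%, median 0.22), all higher in M3-2, against 9.19% called in either direction over all genes. BST2, tetherin, which holds budding virus at the cell surface, rose 1.86-fold, from 6.88 and 6.59 to 7.65 and 7.62 (adjusted p = 0.00077), and was higher again in M3-1, at 8.52 and 8.58. HLA-B was 6.70 and 6.44 against 7.20 and 6.99, near background (adjusted p = 0.0387), and lost its call without any 1 of the 6 arrays of M3-2 (0.286 and 0.0573), 22Rv1-PT (0.0638 and 0.298) and M3-1 (0.0813 in both). Its probe may also read other class I genes of like sequence. The other interferon calls, IFI6 and IFIH1, were lost without M3-2 replicate 1 and without either 22Rv1-PT array. That of IFI6 was also lost without M3-2 replicate 2 and with the mean of its probes (adjusted p = 0.221), which did not all move in 1 direction. That of IFIH1 was also lost without either M3-1 array. The interferon count was 1 without M3-2 replicate 1 or either 22Rv1-PT array and 6 without either parental array, and that of antigen presentation was 0 without M3-2 replicate 1, 22Rv1-PT replicate 1 or either M3-1 array.

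M3-2 was next set against M3-1, the other metastatic line, to find where it stood apart from a line of the same label. The lines differed at 303 genes, 2.46% of those tested (174, or 1.41%, higher and 129, or 1.05%, lower in M3-2), against 1083 genes (8.79%) for M3-1 and 22Rv1-PT. The first count was 136 without M3-2 replicate 1, 100 and 94 without M3-1 replicates 1 and 2, and 492 without either parental array, and the second was 523 and 579 without 22Rv1-PT replicates 1 and 2, 426 and 457 without M3-1 replicates 1 and 2, and 1765 without either parental array. These comparisons share arrays with that of M3-2 and 22Rv1-PT, and their values are therefore given side by side. The root mean square difference of the line means over genes was 0.23 between M3-2 and M3-1, 0.34 between M3-2 and 22Rv1-PT and 0.33 between M3-1 and 22Rv1-PT.

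Among the genes with the largest increase, CEACAM6, LPIN2 and AGR2 were raised over 22Rv1-PT in M3-2 while the difference of M3-1 was -0.07, -0.08 and 0.01. The difference between the 2 lines was 3.57, 3.34 and 2.19, at adjusted p of 1e-08, 2.72e-08 and 1.87e-05. Over the parental cells M3-2 was higher by 3.21, 3.49 and 1.02, since AGR2 was higher in those cells than in 22Rv1-PT. C10orf95 was at background in M3-1 as in 22Rv1-PT, and M3-2 was at least 5.72-fold above M3-1 (adjusted p = 4.38e-08). SLC68A1 and REG4 were also raised over 22Rv1-PT in M3-2 and not in M3-1. There they differed from 22Rv1-PT by -0.40 and -0.65, so that the differences between the lines were 2.54 (adjusted p = 1.81e-07) and 2.28 (adjusted p = 4.6e-05). WIF1, LGALS4, SPOCK2, KCNG1 and SERPINE2 were raised in both lines and further in M3-2, by 1.55, 1.20, 1.46, 1.55 and 1.11. KCNJ8, LUM and IER5L were raised in both lines, and the differences between the lines did not pass the test, at 0.13 (SE 0.13), 0.40 (SE 0.24) and -0.01 (SE 0.16).

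Among the decreases, ELF5 was at background in M3-2 while M3-1 kept the level of 22Rv1-PT (M3-2 at least 7.05-fold lower than M3-1, adjusted p = 1.81e-07). MSX1, a homeobox factor, fell 2.14-fold in M3-2, from 8.53 and 8.56 to 7.60 and 7.30 (adjusted p = 0.000248), and stood at 9.23 and 9.08 in M3-1, so that the lines differed by -1.71 (adjusted p = 1.38e-05). BASP1 and FABP7 fell in both lines and further in M3-1, where they read 7.62 and 7.59 and 6.65 and 6.50. NMB had fallen in both lines, with a difference between them of 0.03 (adjusted p = 0.982). EFEMP1, RASL11B and IRX4 were at background in both, so that the 2 lines cannot be compared there.

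**Figure D5:**
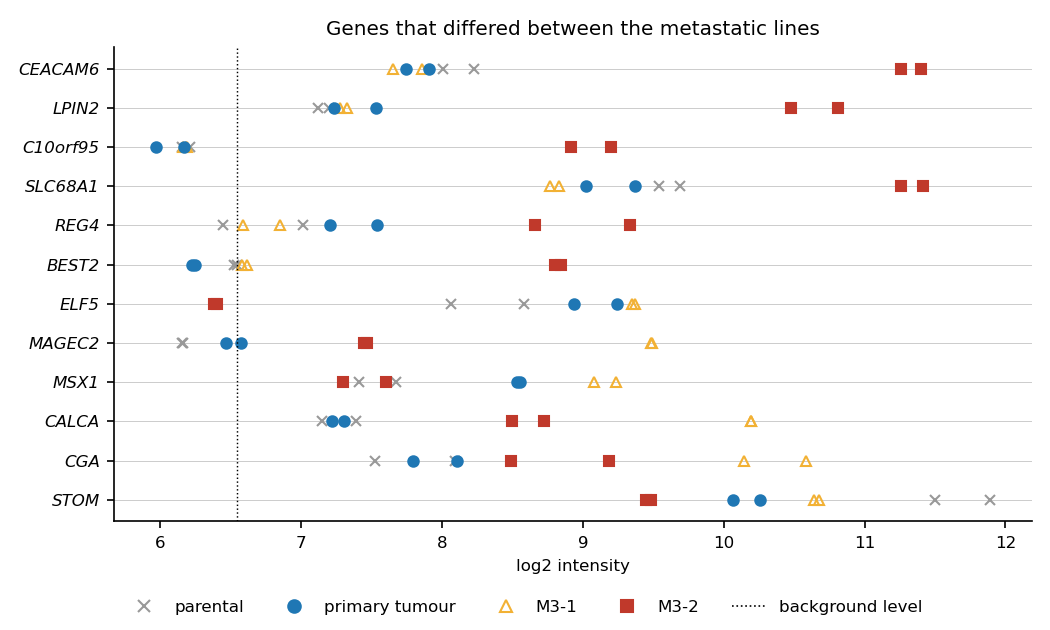
Log2 intensity on each array of the 4 lines for the genes with the largest differences between M3-2 and M3-1 among those that also differed between M3-2 and 22Rv1-PT, 1 point an array, with the background level of 6.54 as a dotted line. CEACAM6, LPIN2 and C10orf95 stand apart from the other lines in M3-2, ELF5 is at background in M3-2 alone, and CALCA is highest in M3-1.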

How the data were processed

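RNA of 8 samples was measured on Illumina bead arrays. The authors deposited log2 intensities for 47320 probes, on 1 common distribution (the arrays differ by at most 0.012 at any rank); the normalization method is not given in the sources used here. A deposited table of unnormalized signals (16 columns) was not used because its column names match no label. GEO's platform annotation gave 30112 probes 1 gene symbol, 8 several and 17200 none, and no symbol needed updating through RefSeq. Probes above 6.54 (background mode 6.12, SD 0.18, upper share 0.01) on at least 2 arrays were kept, and the brightest probe stood for each of 12317 genes. limma 3.58.1 (R 4.3.3) fitted 4 line means to all 8 arrays, leaving 4 residual degrees of freedom, with eBayes and Benjamini-Hochberg adjustment over all genes; fits were tested on simulated data. Folds come from differences of mean log2 intensity. Named genes were the 15 largest called changes each way and up to 4 called members per list. A fixed panel and the 6 largest differences from M3-1 each way were added. The largest changes and differences had to have arrays that did not overlap between the lines compared. Other list members were picked with their values known. Members and lists were chosen with earlier results of these data known. Arrays carry no counts, so their number limits the precision.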

Additional observations from a re-analysis of the deposited data

Results flagged for a closer look

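Among the genes named by rule and called in M3-2 against 22Rv1-PT, these 44 were singled out because the effect against 22Rv1-PT differed between M3-2 and M3-1 in the test of M3-2 against M3-1 itself, at an adjusted p below 0.05. Each value is the log2 difference of M3-2 minus M3-1, with the adjusted p of limma over all 12317 genes and 2 arrays a line, a test that 303 genes passed in all. For ELF5, C10orf95, HBA1 and CYP4X1, where 1 of the 2 lines was at background, the value is the measured difference, and the bound is at least 7.05-fold, 5.72-fold, 1.65-fold and 1.40-fold.

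In the first set M3-2 was higher than both 22Rv1-PT and M3-1. The values for the largest differences were CEACAM6 (3.57, adjusted p = 1e-08), LPIN2 (3.34, adjusted p = 2.72e-08), C10orf95 (2.88, adjusted p = 4.38e-08), SLC68A1 (2.54, adjusted p = 1.81e-07), REG4 (2.28, adjusted p = 4.6e-05), BEST2 (2.23, adjusted p = 1.6e-07), AGR2 (2.19, adjusted p = 1.87e-05), KCNG1 (1.55, adjusted p = 1.64e-05), WIF1 (1.55, adjusted p = 8.98e-06) and F3 (1.53, adjusted p = 0.000121). The remaining genes of this set were SPOCK2 (1.46, adjusted p = 9.79e-05), PDK4 (1.24, adjusted p = 0.022), LGALS4 (1.20, adjusted p = 0.000154), PPP1R1B (1.11, adjusted p = 0.000513), SERPINE2 (1.11, adjusted p = 0.000299), ALDH1A1 (1.07, adjusted p = 0.0129), IGFBP2 (1.00, adjusted p = 0.00238), PHLDA1 (0.94, adjusted p = 0.00984), UGDH (0.83, adjusted p = 0.00409), KRT8 (0.71, adjusted p = 0.00893), THBS1 (0.66, adjusted p = 0.049) and ELF3 (0.63, adjusted p = 0.0148).

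In the second set M3-2 was lower than both. These genes were ELF5 (-2.97, adjusted p = 1.81e-07), MSX1 (-1.71, adjusted p = 1.38e-05), STOM (-1.19, adjusted p = 0.000324), NOS3 (-1.05, adjusted p = 0.00378), ADA2 (-0.97, adjusted p = 0.00186), DDC (-0.79, adjusted p = 0.0121), CA12 (-0.74, adjusted p = 0.0175), ALPL (-0.67, adjusted p = 0.013), UGT2B17 (-0.66, adjusted p = 0.0207) and CTSH (-0.61, adjusted p = 0.032). In the third set M3-2 was higher than 22Rv1-PT but stayed below M3-1, as found for MAGEC2 (-2.03, adjusted p = 2.77e-07), CALCA (-1.58, adjusted p = 1.38e-05), CGA (-1.53, adjusted p = 0.00219), BST2 (-0.91, adjusted p = 0.00186) and ALB (-0.61, adjusted p = 0.0362). In the fourth it was lower than 22Rv1-PT but above M3-1, as found for BASP1 (2.11, adjusted p = 8.29e-07), HBA2 (1.52, adjusted p = 4.6e-05), FABP7 (1.50, adjusted p = 0.00169), ZBTB16 (0.96, adjusted p = 0.00476), HBA1 (0.88, adjusted p = 0.00204), PMEPA1 (0.70, adjusted p = 0.0284) and CYP4X1 (0.68, adjusted p = 0.016). The probes of HBA1 and HBA2 may read each other's transcripts, which are near-identical.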

How the results depend on the processing

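None of the 161 named genes called in M3-2 against 22Rv1-PT changed direction in any alternative, but most alternatives could not have changed it. Leaving out arrays of other lines, array weights, the replicate block and the intensity trend kept the difference of the line means. Leaving out 1 array of M3-2 or 22Rv1-PT could not turn it either, since no called gene had overlapping arrays. The mean of probes and cyclic loess could have turned a direction. Of these 161 genes, 69 missed the threshold in at least 1 of the up to 17 alternatives testing them, mostly those with fewer arrays. The balance of all calls did turn, from 539 higher and 593 lower to 574 and 567 with cyclic loess. It also turned to more higher than lower without M3-2 replicate 2 or 22Rv1-PT replicate 1. Leaving out 1 array gave 519 to 1844 called genes in place of 1132, with 253 to 853 higher and 255 to 991 lower. For M3-2 against M3-1 the range was 94 to 492 in place of 303, and for M3-1 against 22Rv1-PT it was 426 to 1765 in place of 1083. The highest counts came without a parental array, which removes the parental spread from the fit. Fitting only the 4 arrays compared gave 1220, 484 and 2258 genes, and array weights gave 1538, 548 and 2391; the cause was not tested. All 1132 genes remained called with array weights and 1105 with only the 4 arrays. The remaining alternatives for M3-2 against 22Rv1-PT (filters, the mean of probes, cyclic loess, an intensity trend) gave 857 to 1188 genes, and 1308 probes were called with each probe on its own. With the replicate number as a block, the 3 counts were 1442, 389 and 1351, but samples share only a number: no label names a shared batch, and same-numbered 22Rv1-PT and M3-2 arrays deviated together at a correlation of 0.17 (-0.18 to 0.52 over the 6 pairs of lines). Of 60 named genes with several probes, 57 had all probes in 1 direction, and IFI6, KRT18 and HOXC6 did not. Genes near 6.54 have little signal over background, so that smaller differences there were not detectable.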

Other observations

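Several gene groups outside the report's comparisons also held changes between M3-2 and 22Rv1-PT. In purine signalling, where extracellular ATP and adenosine act on surface receptors, 2 of 16 genes rose and 2 fell (median -0.17). The called share was 25%, and 28.6% for the monoamine genes below, against 9.19% of all genes. P2RY1, an ADP receptor, read 7.64 and 7.99 in 22Rv1-PT and a mean of 9.83 (SD 0.25, n = 2) in M3-2, 4.04-fold higher (adjusted p = 1.56e-06). DPP4, a surface peptidase that binds adenosine deaminase, rose 3.67-fold, from 7.65 and 7.80 to 9.77 and 9.42 (adjusted p = 1.43e-06). ADA2, a secreted adenosine deaminase, fell 3.03-fold, from 8.27 on both arrays to 6.80 and 6.55 (adjusted p = 7.33e-06), and P2RY11, an ATP receptor, 1.68-fold (adjusted p = 0.00287). Of 7 monoamine genes, DDC was lower and PPP1R1B, the dopamine-regulated phosphatase inhibitor DARPP-32, 1.78-fold higher, from 12.20 and 12.18 to 13.17 and 12.87 (adjusted p = 0.00185).

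Of 14 HOX genes 4 fell and none rose (median -0.13), and all 4 belong to the HOXC cluster. The called share was 28.6%, and 37.5% for the globins below, against 9.19% of all genes. HOXC4 fell 1.74-fold, from 7.54 and 7.48 to 6.72 and 6.71 (adjusted p = 0.000647), and HOXC13 1.61-fold, from a mean of 9.03 (SD 0.04, n = 2) to 8.37 and 8.31 (adjusted p = 0.00317). HOXC8 and HOXC6 lost their calls without M3-2 replicate 1 (0.0628 and 0.0707), M3-2 replicate 2 (0.0619 and 0.153) and 22Rv1-PT replicate 1 (0.114 and 0.177), and HOXC6 also without 22Rv1-PT replicate 2 (0.0955). The 2 members of this cluster that did not pass the test, HOXC9 and HOXC10, differed by -0.09 and -0.26. Of 8 globins 3 fell (median -0.19): HBA2, from 9.81 and 9.62 to 8.59 and 8.77 (2.05-fold, adjusted p = 0.00049), HBA1, which its probe may not tell from HBA2, 1.87-fold (adjusted p = 0.000631), and HBQ1, whose call was lost without M3-2 replicate 1 (0.17) and 22Rv1-PT replicates 1 and 2 (0.126 and 0.0719).

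Of 19 genes that answer to glucocorticoid, 2 rose and 4 fell (median -0.08), so that 31.6% were called, against 9.19% of all genes. PDK4 and ANGPTL4 moved in opposite directions, and KLF9, a zinc finger factor, was 1.85-fold lower, from a mean of 8.99 (SD 0.02, n = 2) to 8.23 and 7.96 (adjusted p = 0.000637). Of 20 cancer-testis antigens 10% were called, near the 9.19% of all genes. MAGEC2 rose 1.92-fold, from 6.47 and 6.57 to 7.47 and 7.45 (adjusted p = 0.000183), with 1 of its 22Rv1-PT arrays below background. PRAME fell 1.69-fold (adjusted p = 0.00347) and lost its call without M3-2 replicate 1 or without 22Rv1-PT replicate 2. Markers of possible host sites were few: ALB, albumin, was bright in both lines and 1.93-fold higher in M3-2, from 12.07 and 12.27 to 13.15 and 13.09 (adjusted p = 0.000638), beside 13.52 and 13.84 in the parental cells, and 10 of the 14 liver markers did not pass the filter on background. ALPL, the alkaline phosphatase of bone and liver, fell 1.90-fold, from 8.44 and 8.39 to 7.53 and 7.46 (adjusted p = 0.000536). None of 10 lung markers was above background on both arrays of M3-2.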
